A study of Saccharomyces cerevisiae with 11 samples.

Results

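The genes described here are those of chromosome I, the shortest nuclear chromosome of budding yeast, followed library by library and between the study's groups. Members were chosen by their systematic names, which begin with YAL on the left arm and YAR on the right arm, and by a deposited level of at least 1 TPM (a transcript abundance that sums to the same total in each library) in at least 2 libraries. Of 118 chromosome I rows in the table, 108 passed that minimum and 10 did not. The genes CDC19, ADE1, ACS1, EFB1 and SSA1 were set apart by the rule, as would have been any RPL or RPS gene, which left 103 members, 74 on the left arm and 29 on the right. They were 103 of 6432 features past the same minimum and of 7035 usable rows in all. Of the 103, 83 matched a gene of the RefSeq annotation and 20 did not, and the latter are named only by their systematic names in the table. The nearest members inside the minimum, by their second-highest deposited level, were YAL004W at 1.06 TPM, YAL034C-B at 1.44 TPM and YAR070C at 1.45 TPM. The nearest rows outside it were YAL016C-B at 0.23 TPM, YAL045C at 0.66 TPM and YAR064W at 0.68 TPM. The chromosome was picked for description because earlier results of these data had shown it to move as a whole, so the values below that show this movement are a description and carry no test.

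The study used 11 RNA-seq libraries of haploid MATa cells of the laboratory strain W303. All 11 cultures carried ADH1-OsTIR1, a plant receptor that lets auxin trigger degradation of tagged proteins, and SCC2-AID*-6FLAG-HYG, a chromosomal copy of SCC2 with such a tag. The 4 groups differed in a pRS413 plasmid with a HIS marker, which carried 7MYC-tagged SCC2 as the wild type (WT, 3 libraries), as scc2-R787G (3 libraries) or as scc2-G1242V (3 libraries), or was an empty vector (2 libraries). All cultures were grown in medium that selects for the plasmid (SD-HIS) and received 1 mM of the auxin IAA (3-indoleacetic acid) for 9 h, controls included, so no library shows the strain without auxin. Nothing in the labels says whether the replicate cultures came from separate transformants or colonies, and p-values then measure only the spread between these cultures.

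Scc2 is a subunit of the complex that loads cohesin, the ring that holds sister chromatids together until they separate at mitosis. Cohesion lets the sister centromeres attach to opposite spindle poles, and cells that segregate chromosomes unevenly can gain or lose a copy of one chromosome, a state called aneuploidy. In budding yeast the mRNA level of most genes follows the number of gene copies, so that an extra chromosome is usually seen as a shift in the same direction along its whole length. No DNA was measured here, so copy number was not measured. In RNA from a whole culture, a change in the number of cells that carry more template and a change in the level per cell cannot be told apart.

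The kinetochore acts on a chromosome at its centromere. The centromeres of chromosome I and of chromosome IX, the only other chromosome with a library far from 0 below, are shown because each is short enough to read in full. Both come from the RefSeq sequence of the R64 assembly, the sacCer3 build, of strain S288C, on the plus strand. Capitals mark the first and last conserved elements, CDEI and CDEIII, bound by Cbf1 and by the CBF3 complex.
CEN1, chrI:151465-151582: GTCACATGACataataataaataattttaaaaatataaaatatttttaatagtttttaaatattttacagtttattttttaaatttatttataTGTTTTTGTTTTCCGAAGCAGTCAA
CEN9, chrIX:355629-355745: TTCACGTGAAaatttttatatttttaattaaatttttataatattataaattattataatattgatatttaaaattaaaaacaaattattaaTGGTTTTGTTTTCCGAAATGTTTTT
CEN1 was 118 bases long, and the lower-case stretch between the capitals, CDEII, held 83 bases of which 96.4% were A or T. CEN9 was 117 bases long with a CDEII of 82 bases and 97.6% A or T. Over all 16 centromeres the length ran from 111 to 120 bases and the A and T content of CDEII from 86.9% to 97.6%, so both lay within the range of the others in length, and both were near the upper end in A and T. Chromosome I itself measured 230218 bases in that assembly.

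The libraries as a whole set the frame for these values. Deposited TPM were rescaled between libraries with factors from 0.882 to 1.08, and rRNA rows took 9.19% of TPM in WT replicate 2 and 0.155% to 0.494% in the others. SCC2 transcripts, from the tagged chromosomal copy and the plasmid together, stood at 78.1 to 132 scaled TPM in the 9 libraries with an SCC2 plasmid and at 23.9 and 22.5 scaled TPM in the empty vector libraries. The cell type markers fitted MATa cells by their sums. The 5 a-cell genes summed to 449 to 838 scaled TPM, the 4 alpha-cell genes to 28.9 to 56.0 and the 6 haploid-cell genes to 366 to 579. Single genes of the a-cell and alpha-cell lists overlapped. An alpha-cell gene was at 0 in WT replicate 1, but the highest alpha-cell gene stood at 21.1 to 40.0 scaled TPM over the libraries. In WT replicate 3 it stood at 28.1, above the lowest a-cell gene at 17.7. The number of reads behind each library is unknown, so no counting error can be given.

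The chromosome I genes stood at different levels in cultures that carried the same plasmid. Together the 103 members took 1.01% of all TPM in WT replicate 1 but only 0.537% in replicate 2, with replicate 3 at 0.746%. They took 0.740%, 0.485% and 0.465% in R787G replicates 1, 2 and 3, and 0.580%, 0.916% and 0.571% in G1242V replicates 1, 2 and 3. The empty vector libraries were close to each other at 0.537% and 0.517%. For a value that weights each gene equally, every gene's log2(scaled TPM + 1) was set against its own median over the 11 libraries, and the median over the members was taken relative to the genes of the other 15 nuclear chromosomes, 6177 in number. On this log2 scale the WT libraries stood at 0.63, -0.23 and 0.16 for replicates 1, 2 and 3. The R787G libraries stood at 0.29, -0.18 and -0.21, the G1242V libraries at 0.0043, 0.61 and -0.016, and the empty vector libraries at -0.15 and -0.11. One library of each SCC2 plasmid group was therefore the highest of its group, WT replicate 1, R787G replicate 1 and G1242V replicate 2, and WT replicate 3 lay between the other two of its group.

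**Figure D1:**
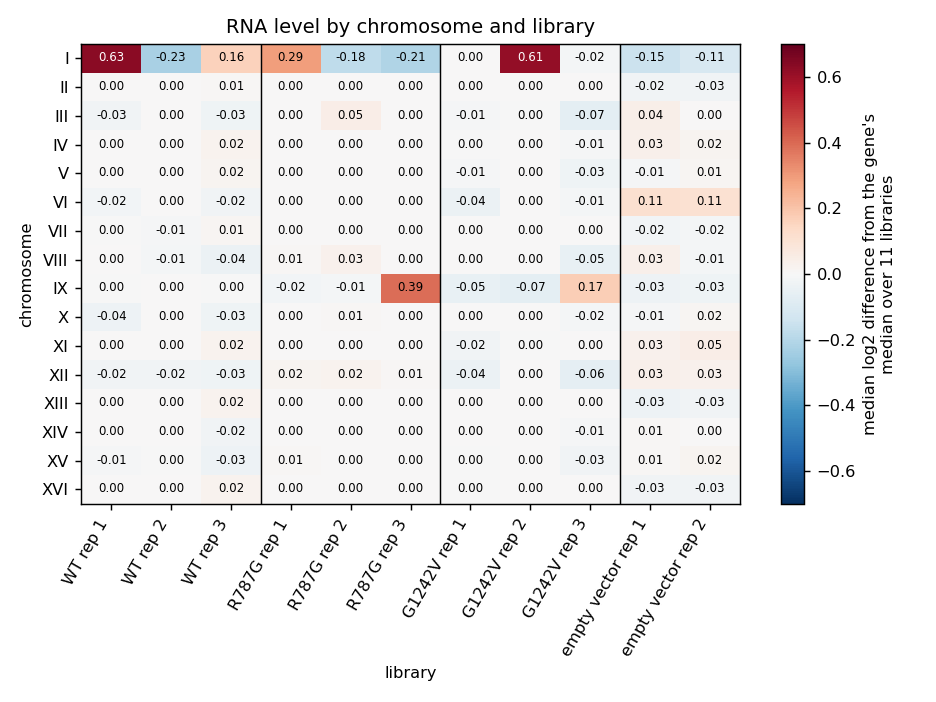
Median log2 difference of each chromosome's genes from their 11-library median (colour and printed value) for the 16 nuclear chromosomes (rows) in each of 11 libraries (columns, separated by group). Chromosome I ranged from -0.23 in WT replicate 2 to 0.63 in WT replicate 1, and the 14 chromosomes other than I and IX stayed between -0.07 and 0.11.

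The other chromosomes gave the scale for these shifts. Apart from chromosome IX, the 14 others lay between -0.0682 and 0.1126 in every library, and the widest range any of them covered over the 11 libraries was 0.153, on chromosome VI, against 0.86 on chromosome I. Chromosome IX, with 231 genes, stood at 0.39 in R787G replicate 3 and at 0.17 in G1242V replicate 3 and covered a range of 0.46. Neither of those libraries was the highest of its group for chromosome I.

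**Figure D2:**
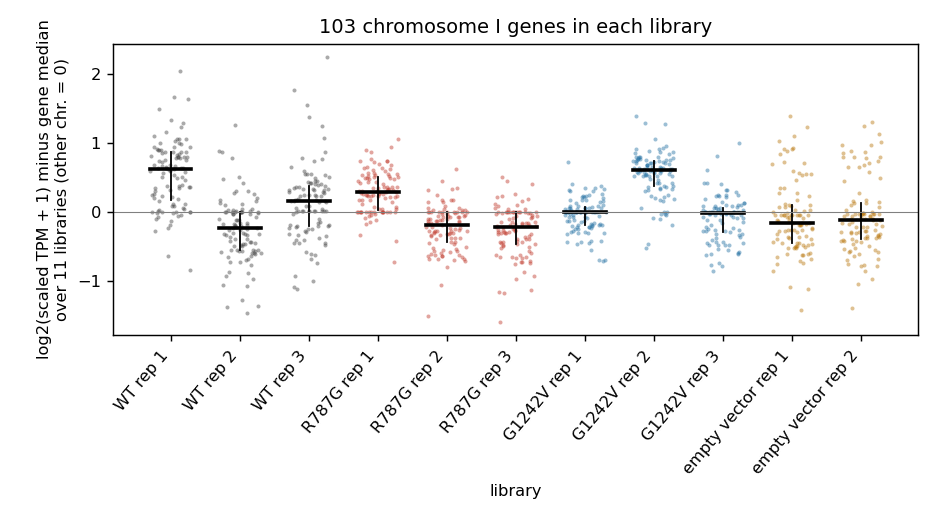
Each point is one of 103 chromosome I genes in one library, as log2(scaled TPM + 1) minus that gene's median over 11 libraries, with the genes of the other chromosomes at 0; thick bars are medians and thin bars run from the lower to the upper quartile. The whole cloud of points sits higher in WT replicate 1 (median 0.63), R787G replicate 1 (0.29) and G1242V replicate 2 (0.61) than in the other libraries of the same group.

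The shift was shared by nearly all members rather than carried by a few abundant genes. In WT, 93 of 103 members had their highest level in replicate 1 (90.3%, against 28.7% of the genes on the other chromosomes), and 93 had their lowest in replicate 2. The full order with replicate 1 highest, replicate 3 next and replicate 2 lowest held for 86 members, or 83.5%, against 11.7% of the other genes. In R787G, 98 members were highest in replicate 1 (95.1% against 30.4%). In G1242V, 97 members were highest in replicate 2 (94.2% against 34.0%). In the empty vector libraries, 58 members were higher in replicate 1 and 45 in replicate 2.

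Within a group the plasmid allele is the same, so a difference between 2 of its libraries is not one between alleles. Whether an allele alters how far its cultures diverge was not tested. WT replicate 1 stood above WT replicate 2 by a median of 0.89 on the log2 scale over the members (quartiles 0.67 and 1.04), relative to the other chromosomes. WT replicate 1 stood above WT replicate 3 by 0.43 (0.29 to 0.60), and WT replicate 3 above WT replicate 2 by 0.40 (0.23 to 0.58). The WT libraries thus formed 3 levels with similar steps between them. In R787G, replicate 1 stood above replicate 2 by 0.56 (0.45 to 0.64) and above replicate 3 by 0.61 (0.48 to 0.67), and replicates 2 and 3 differed by 0.033. In G1242V, replicate 2 stood above replicate 1 by 0.60 (0.53 to 0.66) and above replicate 3 by 0.64 (0.45 to 0.79), and replicates 1 and 3 differed by 0.034. The empty vector libraries differed by 0.010. In R787G and G1242V, then, 1 library stood apart from a pair with nearly equal levels.

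As plain ratios of scaled TPM, over the 73 members with a mean of at least 10 scaled TPM, the median ratio was 1.91-fold for WT replicate 1 over replicate 2. It was 1.40-fold for WT replicate 1 over 3 and 1.36-fold for WT replicate 3 over 2. In R787G it was 1.53-fold for replicate 1 over 2, 1.56-fold for replicate 1 over 3 and 1.02-fold for replicate 2 over 3. In G1242V it was 1.52-fold for replicate 2 over 1, 1.60-fold for replicate 2 over 3 and 1.03-fold for replicate 1 over 3, and in the empty vector libraries it was 1.02-fold. No pair reached a median of 1 on the log2 scale, the value of a doubling.

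Counted by members at least 1.25-fold higher on the log2(scaled TPM + 1) scale, 95 of 103 were so in WT replicate 1 over replicate 2, where 12.3% of all features tested were. The count was 72 in WT replicate 1 over 3 (13.3% of all features) and 63 in WT replicate 3 over 2 (14.7%). It was 88 in R787G replicate 1 over 2 (3.47%), 88 in R787G replicate 1 over 3 (4.32%), and 8 in R787G replicate 2 over 3 (3.56%). It was 95 in G1242V replicate 2 over 1 (6.14%), 92 in G1242V replicate 2 over 3 (15.2%), 14 in G1242V replicate 1 over 3 (11.5%) and 2 in the empty vector pair (1.45%). These pairs were singled out by earlier results, so the shares describe the libraries and test nothing.

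**Figure D3:**
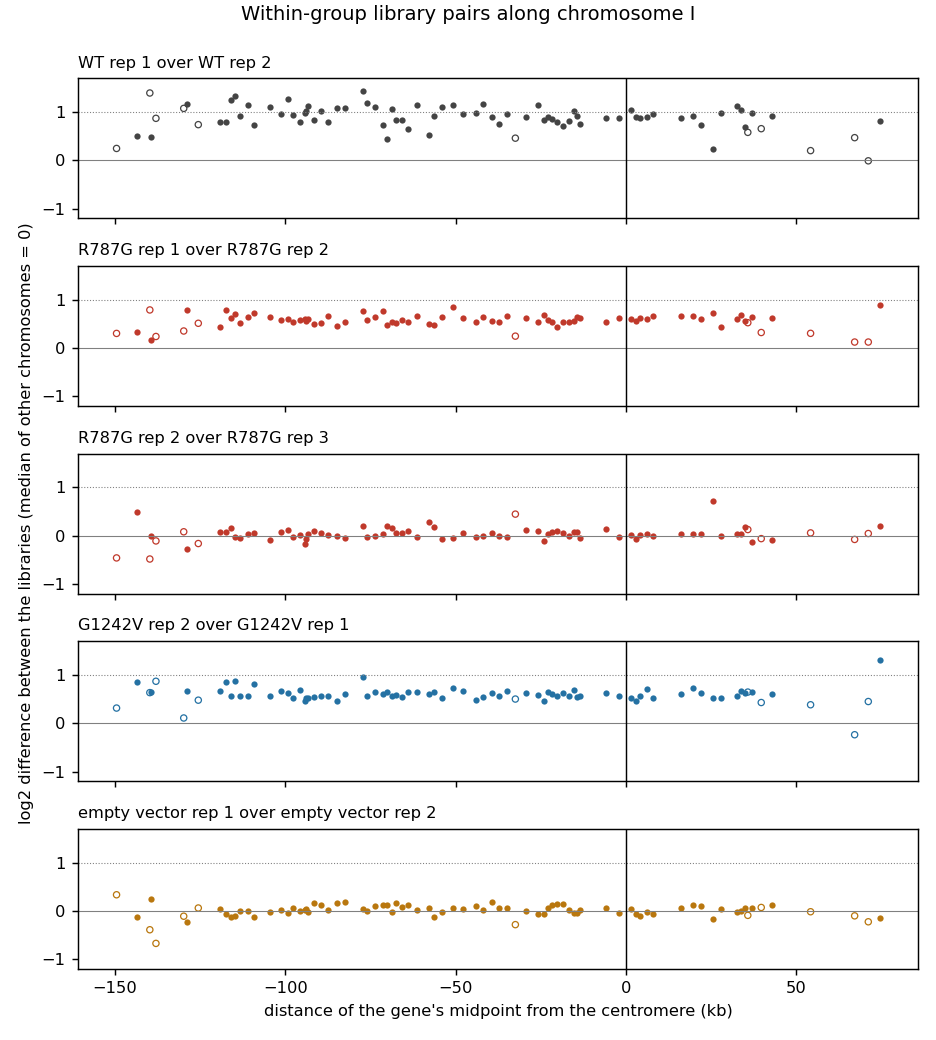
log2 difference between 2 libraries of one group (y axis, other chromosomes at 0) for each chromosome I gene with an annotated position, by the distance of its midpoint from the centromere in kb (x axis); filled points have a mean of at least 10 scaled TPM, open points less, the dotted line marks a doubling. In WT replicate 1 over 2, R787G replicate 1 over 2 and G1242V replicate 2 over 1 the points form a band above 0 on both sides of the centromere. The medians of these pairs over all members, plotted or not, were 0.89, 0.56 and 0.60. The R787G replicate 2 over 3 and empty vector pairs lie around 0.

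The band ran along both arms. Over members with at least 10 scaled TPM, 57 on the left arm and 16 on the right, the median difference was 0.93 on the left and 0.91 on the right in WT replicate 1 over 2. It was 0.58 and 0.62 in R787G replicate 1 over 2, and 0.60 on both arms in G1242V replicate 2 over 1. In each of these pairs 0 of the 73 better expressed members stood at or below 0, and the same held for R787G replicate 1 over 3. The 22 members nearest the chromosome ends had medians of 0.60, 0.42 and 0.63 in the WT, R787G and G1242V pairs, against 0.91, 0.58 and 0.59 for the 81 inner ones. The 30 members with a mean below 10 scaled TPM had medians of 0.50, 0.36 and 0.49, against 0.92, 0.60 and 0.60 for the 73 above it. Addition of 1 before the logarithm shrinks the differences of low genes, and the effects of level and of position near the ends were not separated.

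How similar the differences of the members were varied between pairs. In G1242V replicate 2 over 1, the interquartile range of the difference was 0.131 over the members and 0.160 over the genes of the other chromosomes, so the members were no more scattered around their own median than other genes around theirs. In R787G replicate 1 over 2 it was 0.186 against 0.108, and in WT replicate 1 over 2 it was 0.371 against 0.291. In both of those pairs the members were more scattered than other genes.

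The genes shown here, from FLC2 on the left arm to CDC15 on the right, had the same highest library in each SCC2 plasmid group. The order of the lower libraries in R787G and G1242V varied between genes. None of these genes was among the members nearest the chromosome ends, where SEO1, given below, departed from this pattern. FLC2, which encodes a putative flavin adenine dinucleotide transporter of the endoplasmic reticulum and lies on the left arm at 45899 to 48250, stood at 297, 138 and 179 scaled TPM in WT replicates 1 to 3. It stood at 229, 146 and 154 in R787G, at 182, 271 and 156 in G1242V, and at 157 and 159 in the empty vector libraries. The highest library of each SCC2 plasmid group was the one named above, and the groups overlapped. CLN3, the G1 cyclin that starts the cell cycle programme at Start, stood at 142, 67.3 and 80.6 scaled TPM in WT, at 104, 75.6 and 75.7 in R787G, at 85.8, 119 and 83.6 in G1242V, and at 53.7 and 47.8 in the empty vector libraries. For CLN3 both empty vector libraries lay below all 9 others.

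MTW1, a subunit of the kinetochore complex that links centromere to microtubule, stood at 19.7, 11.5 and 15.9 scaled TPM in WT and at 31.7, 18.2 and 17.7 in R787G. It stood at 24.5, 38 and 19.6 in G1242V and at 24.6 and 22.6 in the empty vector libraries. PMT2, a mannosyltransferase of the endoplasmic reticulum that glycosylates secreted proteins, stood at 135, 68.4 and 89.1 scaled TPM in WT, at 201, 139 and 141 in R787G, at 166, 234 and 122 in G1242V, and at 115 and 106 in the empty vector libraries. In both genes the highest library of each SCC2 plasmid group was that of the chromosome, although WT as a group was the lowest for MTW1 by its mean (15.7 ± 4.1 scaled TPM, SD, n = 3).

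On either side of the centromere lie TFC3, a subunit of the factor that recruits RNA polymerase III to tRNA genes, on the left arm at 147594 to 151166, and NUP60, a nucleoporin of the nuclear basket, on the right arm at 152257 to 153876. TFC3 stood at 80.3, 43.5 and 65.4 scaled TPM in WT, at 49.6, 32.1 and 32.7 in R787G, at 57.9, 87.0 and 59.0 in G1242V, and at 32.7 and 33.6 in the empty vector libraries. NUP60 stood at 112, 54.2 and 67.4 in WT, at 92.7, 60.5 and 60.1 in R787G, at 70.6, 103 and 60.5 in G1242V, and at 51.8 and 50.1 in the empty vector libraries. Both were highest in the same library of each SCC2 plasmid group, and the empty vector libraries overlapped R787G for TFC3 and lay below all others for NUP60.

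Further along the right arm, RFA1, the large subunit of the single-stranded DNA binding factor RPA, stood at 181, 97.3 and 129 scaled TPM in WT, at 146, 95.9 and 93.4 in R787G, at 106, 174 and 93.8 in G1242V, and at 116 and 117 in the empty vector libraries. CDC15, a kinase of the mitotic exit network, stood at 39.1, 23.3 and 31.0 in WT, at 28, 18.3 and 17.9 in R787G, at 22.7, 35.7 and 22.1 in G1242V, and at 24.5 and 22.9 in the empty vector libraries. For RFA1 the range of each SCC2 plasmid group covered both empty vector libraries, and for CDC15 those of R787G and G1242V did.

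**Figure D4:**
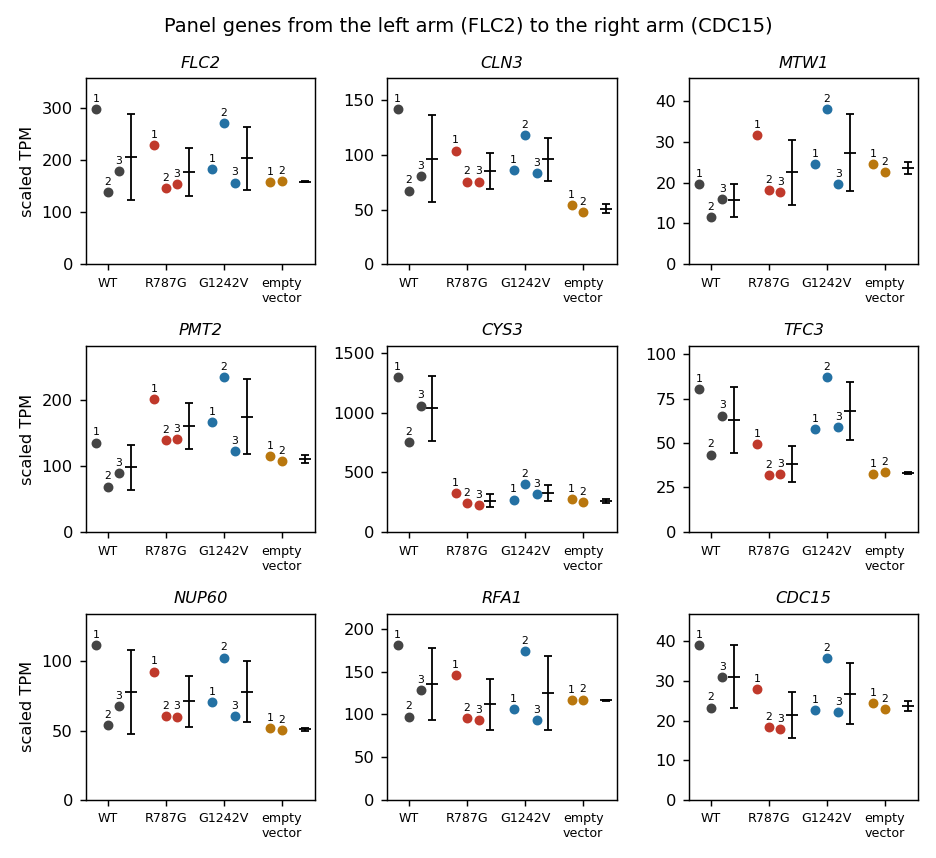
Scaled TPM (y axis, from 0) of 9 chromosome I genes in each library, by group (x axis); points carry the replicate number, and bars show the group mean ± SD (n = 3, or 2 for empty vector). Replicate 1 is the highest WT and R787G library and replicate 2 the highest G1242V library in each panel, for instance FLC2 at 297, 229 and 271.

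The promoters of members at the centromere and of members with named binding motifs are shown as examples, picked with earlier results known. Whether promoter sequence bears on the chromosome I levels was not tested. They are RefSeq sequences of the R64 assembly, read 5′ to 3′ in the gene's direction from 250 bases before to 50 after the annotated gene start. Capitals mark matches, on either strand, to any of 5 short motifs that are spelled out after the sequences, and no match printed overlaps another.
TFC3, chrI:151117-151416, minus strand: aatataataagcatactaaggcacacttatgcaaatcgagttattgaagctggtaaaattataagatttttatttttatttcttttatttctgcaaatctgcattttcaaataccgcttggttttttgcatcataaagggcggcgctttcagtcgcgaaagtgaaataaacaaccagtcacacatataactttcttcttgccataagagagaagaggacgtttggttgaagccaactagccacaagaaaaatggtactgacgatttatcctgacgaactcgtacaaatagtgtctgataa
NUP60, chrI:152007-152306, plus strand: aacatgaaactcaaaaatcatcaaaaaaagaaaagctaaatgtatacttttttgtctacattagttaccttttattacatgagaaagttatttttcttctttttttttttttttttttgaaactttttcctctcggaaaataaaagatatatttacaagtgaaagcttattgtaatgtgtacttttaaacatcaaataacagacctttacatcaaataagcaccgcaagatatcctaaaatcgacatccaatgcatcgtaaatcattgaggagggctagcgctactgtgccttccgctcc
CYS3, chrI:130549-130848, plus strand: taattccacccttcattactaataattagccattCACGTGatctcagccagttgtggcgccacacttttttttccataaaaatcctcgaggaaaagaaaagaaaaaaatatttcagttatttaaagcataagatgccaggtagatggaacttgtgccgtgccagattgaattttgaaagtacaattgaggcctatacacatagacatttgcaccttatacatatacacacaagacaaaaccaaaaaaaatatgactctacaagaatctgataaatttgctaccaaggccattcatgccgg
RFA1, chrI:158570-158869, minus strand: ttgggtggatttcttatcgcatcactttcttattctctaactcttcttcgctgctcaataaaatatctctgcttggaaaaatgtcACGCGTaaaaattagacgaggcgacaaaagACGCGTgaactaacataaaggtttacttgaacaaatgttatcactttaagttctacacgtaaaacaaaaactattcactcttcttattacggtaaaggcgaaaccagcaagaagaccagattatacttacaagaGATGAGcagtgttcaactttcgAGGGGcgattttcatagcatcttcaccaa
The windows of TFC3 and NUP60 held none of the 5 motifs, that of CYS3 held 1 match and that of RFA1 held 4. In the RFA1 window the GATGAG match spans the annotated gene start and the AGGGG match lies after it, inside the gene. The Reb1 motif, TTACCCG, was in 2 of the 82 member promoters of the RefSeq table (2.44%, against 7.21% of the 5896 promoters of all genes). The Cbf1 motif, CACGTG, the one in the CYS3 window, was in 3 (3.66% against 2.95%). The motif of the G1 factor MBF, ACGCGT, which occurs in the RFA1 window, was in 3 (3.66% against 3.12%). The stress element, AGGGG, was in 20 (24.4% against 22.0%). The core of the PAC element of ribosome assembly genes, GATGAG, was in 21 (25.6% against 19.9%). None of the 5 was in 45 (54.9% against 54.4%). These are matches of letters, with no test.

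Grouped by what their products do, every list had a median above 0 in the same within-group pairs. The lists were drawn up with earlier results known, so their medians are a description. The 10 genes of cell cycle, polarity and spindle, among them CLN3, CDC24, CDC15, SPC72 and MTW1, had median log2 differences of 0.86 in WT replicate 1 over 2, 0.61 in R787G replicate 1 over 2 and 0.60 in G1242V replicate 2 over 1. The 9 genes of transcription and chromatin, such as TFC3, the mRNA deadenylase gene CCR4 and the chromatin remodeller gene FUN30, had medians of 0.89, 0.58 and 0.61. The 3 genes of DNA repair and replication, RFA1, NTG1 and SAW1, had medians of 0.91, 0.61 and 0.65. The 14 genes of the secretory pathway and membranes, such as ERP2 of the p24 cargo proteins and the SNARE gene SNC1, had medians of 0.95, 0.58 and 0.57. The 8 genes of mitochondria and peroxisomes had medians of 0.96, 0.58 and 0.56. The R787G and G1242V medians of these 5 lists lay between 0.56 and 0.65.

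The WT libraries were less uniform between lists. The 7 genes of RNA processing, ribosome assembly and translation, such as MAK16 and ECM1 of large ribosomal subunit assembly and the translation initiation factor gene FUN12, had a median of 1.05 in WT replicate 1 over 3 and 0.24 in WT replicate 3 over 2. The 9 genes of metabolism and nutrient signalling had the opposite split, 0.29 and 0.68. MAK16 stood at 88.9, 40.0 and 36.2 scaled TPM in WT replicates 1 to 3, so replicate 3 was not above replicate 2 for this gene. BDH1, a butanediol dehydrogenase, stood at 430, 182 and 377 scaled TPM, with replicate 3 close to replicate 1. In R787G and G1242V the same 2 lists had medians of 0.65 and 0.61 in R787G replicate 1 over 2 and of 0.58 and 0.56 in G1242V replicate 2 over 1.

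A few members departed from the chromosome. SEO1, a putative permease gene near the left end, stood at 102, 72.2 and 196 scaled TPM in WT, so that replicate 3 was its highest WT library. It stood at 25, 46.4 and 83.6 in G1242V, with replicate 3 again the highest. PHO11, a secreted acid phosphatase gene near the right end, stood at 14.8, 38.4 and 14 scaled TPM in G1242V, a log2 difference of 1.31 for replicate 2 over 1. PAU7, of the seripauperin family of cell wall proteins, differed by 0.24 in WT replicate 1 over 2 and by 1.44 in R787G replicate 1 over 3. The 9 subtelomeric and multigene family members had medians of 0.68, 0.53 and 0.56 in the 3 pairs. Reads of 50 bases cannot always be assigned between near-identical copies, so values of the PAU genes, FLO1, FLO9, PHO11 and IMD1 are uncertain, as are those of SSA1 among the genes set apart and of members that overlap another gene.

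The 5 genes set apart by the rule are strongly regulated or very abundant, yet each was highest in the same library of its group as the members were, with medians of 1.19 in WT replicate 1 over 2, 0.51 in R787G replicate 1 over 2 and 0.57 in G1242V replicate 2 over 1. CDC19, the pyruvate kinase of glycolysis, stood at 12702, 5762 and 8199 scaled TPM in WT, at 6573, 4533 and 4766 in R787G, at 7287, 9874 and 6787 in G1242V, and at 2907 and 2670 in the empty vector libraries. ADE1, an enzyme of adenine synthesis, stood at 518, 213 and 385 in WT, at 274, 174 and 171 in R787G, at 494, 738 and 471 in G1242V, and at 98 and 103 in the empty vector libraries. EFB1, a translation elongation factor gene, differed by 1.49 in WT replicate 1 over 2, the largest of the 5 in that pair. All cultures carry the ade2-1 allele, which blocks a step of adenine synthesis.

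Between groups, single libraries were also compared, since a group mean mixes libraries at different chromosome I levels. Over the 45 pairs of libraries from different groups, the median difference of the members ran from -0.92 to 0.96 on the log2 scale. WT replicate 1 and G1242V replicate 2 differed by 0.049, with 57 of 103 members higher in the WT library. WT replicate 2 differed by -0.011 from R787G replicate 2, by 0.045 from R787G replicate 3, by 0.046 from empty vector replicate 1 and by 0.011 from empty vector replicate 2. WT replicate 1, in contrast, stood above R787G replicate 2 by 0.96 and above empty vector replicate 1 by 0.88. WT replicate 3 lay between them, above R787G replicates 2 and 3 by 0.42 and 0.45 and above empty vector replicates 1 and 2 by 0.45 and 0.50. Against R787G replicate 1, WT replicates 1, 2 and 3 stood at 0.37, -0.54 and -0.13. The chromosome I difference of WT from R787G thus varied with the library taken from either group. In these between-group pairs the interquartile range over the members was 0.456 to 1.22, and over the genes of the other chromosomes it was 0.409 to 0.846, wider than in the R787G and empty vector pairs within groups.

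For the fits across groups, the spread among libraries of a group enters every test. The residual SD of log2(scaled TPM + 1) had a median of 0.372 over the members (quartiles 0.340 and 0.413), 0.205 over chromosome IX and 0.117 over the genes of the other 15 chromosomes, where the chromosome medians ran from 0.106 to 0.205. Over members with at least 10 scaled TPM it was 0.381, against 0.107 for such genes elsewhere. The standard error of a group difference accordingly had a median of 0.26 over the members, or 0.29 where the empty vector was involved, against 0.096 and 0.107 over all features. The means of the library values were 0.19 ± 0.43 in WT, -0.032 ± 0.28 in R787G, 0.20 ± 0.36 in G1242V (SD, n = 3 each) and -0.13 ± 0.028 in empty vector (SD, n = 2), so the spread within each SCC2 plasmid group exceeded the difference between its mean and the WT mean.

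The tests asked which chromosome I genes differ between the plasmids, by limma on log2(scaled TPM + 1) over all 11 libraries, with p-values adjusted by Benjamini-Hochberg over 6432 features and a threshold of 0.05. In R787G against WT, 11 members were higher, where 36.5% of all features were, and 23 were lower, where 29.3% were; in all 34 of 103 were called, 33.01% against 65.8%. In G1242V against WT, 6 were higher (26.6% of all features) and 6 lower (27.3%), in all 11.7% against 54.0%. In empty vector against WT, 19 were higher (36.8% of all features) and 20 lower (25.2%), in all 37.9% against 62.0%. These 3 comparisons share the WT libraries. In R787G against G1242V, 2 were higher (26.3% of all features) and 12 lower (19.9%), in all 13.6% against 46.2%. In R787G against empty vector, 1 was higher (16.9%) and 7 lower (23.0%), in all 7.77% against 39.9%. In G1242V against empty vector, 18 were higher (25.6%) and 19 lower (37.4%), in all 35.9% against 63.0%. In all 6 comparisons the share of members called was below that of all features. The median log2 difference over the members was -0.26, -0.0092 and -0.38 in R787G, G1242V and empty vector against WT, and 0.067, 0.0021 and 0.089 over all features. Most members called higher in R787G or empty vector against WT had low levels. Of the 11 in R787G and the 19 in empty vector, 2 each had a mean of at least 10 scaled TPM, as did 1 of the 19 lower in G1242V against empty vector. By contrast, 21 of the 23 lower in R787G and all 20 lower in empty vector against WT did. In G1242V against WT, 4 of the 6 higher and 5 of the 6 lower had such a mean. In R787G against G1242V, 0 of the 2 higher and all 12 lower had such a mean. In R787G against empty vector the 1 higher member had such a mean, and 0 of the 7 lower did. In a fit of genes with at least 10 TPM alone, 2 members were higher in R787G and 2 in empty vector against WT, and 1 was lower in G1242V against empty vector. YAL034C-B passed the minimum through the 2 empty vector libraries alone, so its calls, higher in empty vector against WT and lower in G1242V against empty vector, are no evidence. PAU8 reached 1 TPM in those 2 libraries and otherwise in R787G replicate 3 alone, at 1.1 TPM. It would have failed the minimum without the empty vector. Its call as higher in empty vector against WT is therefore no evidence either, nor is any call of PAU8 in R787G or G1242V against empty vector. The split into higher and lower depended on the scaling of the libraries. With TPM as deposited, which moved the median of all features by 0.089, -0.023 and 0.22 against WT in that order, it was 12 and 18, 5 and 7, and 23 and 12; with quantile normalization it was 4 and 28, 4 and 7, and 6 and 36. In R787G against G1242V, R787G against empty vector and G1242V against empty vector it was 4 and 6, 0 and 13, and 6 and 20 with TPM as deposited (median of all features moved by 0.11, -0.13 and -0.25), and 0 and 14, 3 and 1, and 30 and 0 with quantile normalization.

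**Figure D5:**
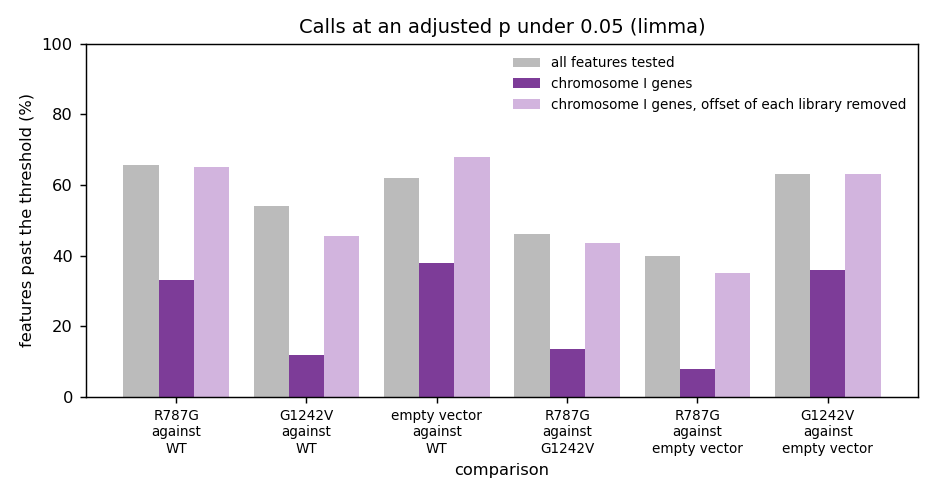
Share of features with a limma adjusted p under 0.05 (y axis, %) in 6 group comparisons (x axis), for all 6432 features tested (grey), the 103 chromosome I genes (dark purple) and the same genes after each library's chromosome I offset was subtracted (light purple). The chromosome I share was below that of all features in each comparison, for instance 11.7% against 54.0% in G1242V against WT, and 45.6% after the subtraction.

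When each library's median deviation over the members was subtracted from its chromosome I genes before the fit, which also removes any difference in that median between groups, more members were called. In R787G against WT 67 members passed (65.0%, against 66.6% of all features in that fit), and in G1242V against WT 47 did (45.6% against 54.8%). In empty vector against WT 70 passed (68.0% against 62.6%), in R787G against G1242V 45 (43.7% against 47.1%), in R787G against empty vector 36 (35.0% against 40.7%) and in G1242V against empty vector 65 (63.1% against 63.7%). The median standard error over the members fell to 0.0995, or 0.111 with the empty vector. The subtracted values were estimated from the same members, so these counts describe the size of the shift and are no second test.

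Without that subtraction, the named members that passed included enzymes of metabolism. CYS3, cystathionine gamma-lyase of cysteine synthesis, stood at 1299, 757 and 1060 scaled TPM in WT, at 325, 240 and 225 in R787G, at 271, 403 and 314 in G1242V, and at 275 and 249 in the empty vector libraries. All 3 WT libraries lay above the 8 others. CYS3 fell by 1.96 ± 0.22 on the log2 scale in R787G (SE, limma adjusted p = 3.46e-05), by 1.64 ± 0.22 in G1242V (limma adjusted p = 0.000155) and by 1.95 ± 0.24 with the empty vector (limma adjusted p = 8.73e-05). GDH3, a glutamate dehydrogenase, stood at 45.5, 26.2 and 33.8 scaled TPM in WT and at 10.3 to 19.8 in the 8 other libraries. It fell by 1.44 ± 0.22 in R787G (limma adjusted p = 0.000296), by 1.15 ± 0.22 in G1242V (limma adjusted p = 0.00164) and by 1.31 ± 0.25 with the empty vector (limma adjusted p = 0.00121).

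BDH2, a gene related to the neighbouring butanediol dehydrogenase BDH1, stood at 221, 129 and 201 scaled TPM in WT, at 41.9, 23.8 and 22.4 in R787G, at 69.2, 127 and 93.6 in G1242V, and at 45 and 46.8 in the empty vector libraries. It fell by 2.63 ± 0.29 in R787G (limma adjusted p = 3.31e-05) and by 1.94 ± 0.32 with the empty vector (limma adjusted p = 0.000527). In G1242V it fell by 0.93 ± 0.29 (limma adjusted p = 0.0197), with the highest G1242V library just under the lowest WT library, and this call was lost without WT replicate 1 (limma adjusted p = 0.0679), without WT replicate 3 (0.0557) or without G1242V replicate 1 (0.0789). BDH1 itself stood at 173, 112 and 99.8 scaled TPM in R787G, at 299.8, 444 and 319 in G1242V, and at 85.8 and 94.3 in the empty vector libraries. Relative to the WT values given above it fell by 1.31 ± 0.31 in R787G (limma adjusted p = 0.00436) and by 1.77 ± 0.35 with the empty vector (limma adjusted p = 0.00164), while the G1242V difference was 0.18 ± 0.31 (limma adjusted p = 0.667). R787G against G1242V was -1.48 ± 0.31 for BDH1 (limma adjusted p = 0.00447).

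GCV3, the H subunit of the mitochondrial glycine cleavage complex, stood at 628, 292 and 495 scaled TPM in WT, at 287, 188 and 185 in R787G, at 386, 556 and 391 in G1242V, and at 111 and 113 in the empty vector libraries. The empty vector libraries were the lowest and the R787G libraries came next, while WT and G1242V overlapped. It fell by 1.99 ± 0.31 with the empty vector (limma adjusted p = 0.000344) and by 1.06 ± 0.27 in R787G (limma adjusted p = 0.00651), and the G1242V difference was -0.04 ± 0.27 (limma adjusted p = 0.915). FUN14, a mitochondrial outer membrane gene, stood at 244, 129 and 198 scaled TPM in WT, at 95.0, 60.9 and 57.7 in R787G, at 127, 186 and 159 in G1242V, and at 60.7 and 62.7 in the empty vector libraries. FUN14 fell by 1.39 ± 0.25 in R787G (limma adjusted p = 0.000744) and by 1.56 ± 0.28 with the empty vector (limma adjusted p = 0.000874), and the G1242V difference was -0.24 ± 0.25 (limma adjusted p = 0.441). R787G lay below G1242V by 1.15 ± 0.25 (limma adjusted p = 0.00500), a direct test of that difference.

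Of the 9 genes in the metabolism and nutrient signalling list, 7 were lower and 0 higher in R787G against WT, 4 lower and 0 higher in G1242V against WT, and 6 lower and 0 higher in empty vector against WT. The list was drawn up with results known, and 29.3%, 27.3% and 25.2% of all features were lower in these comparisons. The cell cycle, secretory and mitochondrial lists are given by their counts, and the counts of the remaining lists are not given. They are to be read against those shares and the 36.5%, 26.6% and 36.8% of all features that were higher. Of the 10 genes of cell cycle, polarity and spindle, 1 was lower in R787G, 1 higher in G1242V and 2 lower with the empty vector, each against WT. Those 2 were CLN3, at -0.84 ± 0.28 (limma adjusted p = 0.0257), and GIP4, a regulator of protein phosphatase 1, at -0.74 (limma adjusted p = 0.0358). Without empty vector replicate 1 or 2 both calls were lost, with limma adjusted p = 0.0703 and 0.127 for CLN3 and 0.1004 and 0.141 for GIP4, and the GIP4 call was also lost without WT replicate 1 (0.106) or WT replicate 3 (0.0768). Both were lost with TPM as deposited (limma adjusted p = 0.0800 for CLN3 and 0.118 for GIP4), CLN3 with only those 2 groups fitted (0.0666) and GIP4 with no filter (0.0628). Of the 14 secretory and membrane genes, 1 was higher and 3 lower in R787G, 3 higher in G1242V, and 4 lower with the empty vector. Of the 8 genes of mitochondria and peroxisomes, 2, 0 and 4 were lower and none was higher in any of these 3 comparisons. The counts of the cell cycle and the secretory lists were near or below the shares of all features, and so was that of the mitochondrial list in R787G.

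Few members with a level of at least 10 scaled TPM rose against WT. ECM1 stood at 48.1, 18.8 and 22.1 scaled TPM in WT and at 96.5, 59.2 and 59.9 in R787G, where it was higher by 1.33 ± 0.36 on the log2 scale (limma adjusted p = 0.00876). PMT2 was higher by 0.74 ± 0.28 in R787G (limma adjusted p = 0.0372), a call lost without WT replicate 2 (0.52, limma adjusted p = 0.138), WT replicate 3 (limma adjusted p = 0.0851), R787G replicate 1 (limma adjusted p = 0.131), R787G replicate 3 (0.0516), G1242V replicate 1 (0.0503) or either empty vector library (0.0511), and with no filter (0.0657). PMT2 was also higher in G1242V against WT, by 0.83 ± 0.28 (limma adjusted p = 0.0280). So were MTW1 by 0.74 ± 0.28 (limma adjusted p = 0.0462) and ERP1 by 0.66 ± 0.24 (0.0404). ERP1, a p24 protein gene, was named for its high level in its list, and its call is given here after its values were seen. Without WT replicate 2 the limma adjusted p of PMT2, MTW1 and ERP1 rose to 0.108, 0.163 and 0.149, and without G1242V replicate 2 to 0.104, 0.166 and 0.144. All 3 were also lost without WT replicate 3 or G1242V replicate 1, with no filter and with only those 2 groups fitted; MTW1 was lost without R787G replicate 2, MTW1 and ERP1 without R787G replicate 3 or either empty vector library, MTW1 with TPM as deposited and without the trend, and ERP1 with quantile normalization. ERP2 stood at 218, 131 and 175 scaled TPM in WT and at 261, 390 and 256 in G1242V, where it was higher by 0.79 ± 0.23 (limma adjusted p = 0.0145), lost without WT replicate 2 (limma adjusted p = 0.0581) or G1242V replicate 2 (0.0557) and with quantile normalization (0.0545). With the empty vector, DFP2 (YAR029W) was higher by 0.96 ± 0.31 (limma adjusted p = 0.0207), at 41.0 and 39.2 scaled TPM against 25.8, 15.7 and 20.2 in WT, and this call was lost without WT replicate 2 (limma adjusted p = 0.0658) or either empty vector library (0.0917 and 0.0760). For PMT2, ERP2, MTW1, ERP1 and DFP2, therefore, leaving out a single library could end the call, and for the first 4 of them a processing choice could as well.

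Several members of the panel gave no call against WT despite wide differences between single libraries. RFA1 differed by -0.26 ± 0.28, -0.13 ± 0.28 and -0.17 ± 0.31 on the log2 scale in R787G, G1242V and empty vector against WT (limma adjusted p = 0.418, 0.724 and 0.654). NUP60 differed by -0.09 ± 0.28, 0.03 ± 0.28 and -0.53 ± 0.31 (limma adjusted p = 0.779, 0.928 and 0.161). CDC15 differed by -0.52 ± 0.24, -0.21 ± 0.24 and -0.35 ± 0.26 (limma adjusted p = 0.0768, 0.483 and 0.272). A p above the threshold does not show that the groups were alike.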

How the data were processed

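RNA from 11 cultures was depleted of rRNA and sequenced as single reads of 50 bases, per the labels' protocols. The authors deposited 1 table of TPM values per gene and library. The submitters' processing notes name bcl2fastq 2.17, STAR, RSEM, edgeR and the sacCer3 build, without their roles, and neither an annotation nor a strand setting is given there. Of 7036 rows, 1 with shifted cells was left out, and 4777 rows had no gene name, which was taken from RefSeq by systematic name.

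From the deposited TPM, library factors were computed as medians of ratios over 5221 genes that reached 10 TPM in each of the libraries. limma 3.58.1 (R 4.3.3, eBayes with trend) was fitted to log2(scaled TPM + 1) of 6432 features (1 TPM or more in 2 or more libraries), in 4 groups, and was tested on simulated data first. TPM keeps no read depth, so intervals for counting error cannot be given. Fold changes on this scale understate those of low genes.

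Named genes were a panel along the chromosome, the genes set apart, the 5 largest rises and falls per comparison among called members with a standard name, no overlap between groups and a mean of 10 scaled TPM or more in the higher of both groups, the 3 members of widest and narrowest range per group, and the 2 of highest level per list; GIP4 and other list members are named beside their list. Members, lists and tests were chosen with earlier results of these data known.

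Replicate numbers were not used as pairs. Alternatives covered the scaling, the pseudocount, the filter, the samples in the fit and each library left out.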

Additional observations from a re-analysis of the deposited data

How the results depend on the processing

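The within-group differences kept their sign and moved by less than the spread between replicates under the settings tried, except the near-zero empty vector pair, which ran from -0.011 to 0.026; WT replicate 1 over 2 ran from 0.77 to 0.92, R787G replicate 1 over 2 from 0.50 to 0.60 and G1242V replicate 2 over 1 from 0.53 to 0.62. Set against the WT mean in place of the 11-library median, the library value was -0.48 for R787G replicate 2, -0.53 for R787G replicate 3 and -0.48 for empty vector replicate 2. Counts of called members were far less stable, and the cause was not tested except where samples or genes were fewer. With quantile normalization the higher calls were 4 in R787G and 6 in empty vector against WT, 0 in R787G against G1242V, 3 in R787G and 30 in G1242V against empty vector, and the lower calls were 36 in empty vector against WT, 1 in R787G and 0 in G1242V against empty vector (all features over the 6 comparisons: 17.8% to 32.6% higher, 18.5% to 32.3% lower). With TPM as deposited, 12 were lower in empty vector against WT, 4 higher and 6 lower in R787G against G1242V, 0 higher and 13 lower in R787G against empty vector and 6 higher in G1242V against empty vector (all features: 10% to 53.2% higher, 12.4% to 55.2% lower). Without a filter, 3 were higher in G1242V against WT, 4 higher and 7 lower in R787G against G1242V, 0 higher in R787G and 11 in G1242V against empty vector (14.8% to 34.6% higher, 17.8% to 35.2% lower). Over genes with at least 10 TPM only, 2 were higher in R787G and 2 in empty vector against WT, 0 in R787G against G1242V, and 0 were lower in R787G and 1 in G1242V against empty vector (19.4% to 36.0% higher, 18.7% to 33.1% lower). A pseudocount of 0.1 gave 3 and one of 5 gave 12 lower in R787G against empty vector (20.2% and 24.0% of all features). Fits of the 2 groups alone gave 2 higher in G1242V against WT, 8 higher and 13 lower in R787G against empty vector and 29 higher in G1242V against empty vector (20.7% to 34.5% higher, 20.9% to 36.7% lower). One setting subtracted each library's median deviation over the members, not taken relative to the other chromosomes. The higher and lower calls were then 33 and 34 (R787G against WT), 22 and 25 (G1242V against WT), 32 and 38 (empty vector against WT), 20 and 25 (R787G against G1242V), 18 and 18 (R787G against empty vector) and 34 and 31 (G1242V against empty vector), with 17.3% to 37.0% of all features higher and 20.3% to 37.7% lower.

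Leaving out 1 library at a time gave 4 to 17 higher and 16 to 38 lower members in R787G against WT (median -0.48 to -0.013), 1 to 12 and 4 to 11 in G1242V against WT (median -0.22 without WT replicate 2 to 0.20 without WT replicate 1), and 12 to 22 and 9 to 41 in empty vector against WT (median -0.56 to -0.17). It gave 1 to 6 and 4 to 18 in R787G against G1242V (median -0.44 to -0.0021), 0 to 2 and 0 to 10 in R787G against empty vector (median -0.16 to 0.13), and 4 to 28 and 9 to 20 in G1242V against empty vector (median 0.094 to 0.42), with 7.82% to 38.1% of all features higher and 10.2% to 39.1% lower; where 1 empty vector library was left, it was assumed to vary like the other groups. Of 32 pairs of a gene and a comparison from the 5 largest rises and falls, 21 kept their call under all 21 alternatives, 11 lost it under at least 1 and 0 changed sign; CLN3 and GIP4 in empty vector and PMT2, MTW1 and ERP1 in G1242V, each against WT, are outside that tally and lost their calls as given in the report.

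Same-numbered libraries had correlations of their deviations from -0.16 to 0.27 over 15 pairs, 3 of them above 0.1. Pairs with other numbers ran from -0.38 to 0.30, with 5 of 30 above 0.1. The 2 empty vector libraries deviate from their mean by equal and opposite amounts, so their pairs add little. The numbers were therefore not taken as pairs, and whether libraries of one number were handled together was not tested. With the replicate block, 2 members were higher and 3 lower in R787G against empty vector (17.1% and 21.8% of all features).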
